A study of Mus musculus with 20 samples.

Results

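Metallothioneins and zinc transporters were described in brains of *Winnie* and C57BL/6 mice through 8 genes taken by name from the 17211 genes of the deposited expression table: the metallothioneins *Mt1*, *Mt2* and *Mt3*, the zinc-sensing transcription factor *Mtf1*, the zinc exporters *Slc30a1* and *Slc30a3*, and the zinc importers *Slc39a10* and *Slc39a14*. All 8 were measured. RNA from 1 brain per mouse was sequenced in 10 C57BL/6 mice and 10 *Winnie* mice, with no treatment named and aged 14 weeks, with 5 labelled females and 5 labelled males in each genotype. *Winnie* mice carry a point mutation in *Muc2*, which encodes the main secreted mucin of the colon, and develop chronic colitis without an added agent, whereas C57BL/6 mice of the same colony served as controls. The study asked how chronic intestinal inflammation alters tryptophan metabolism and NAD synthesis in gut and brain, and the zinc genes lie outside that question. Its methods name fewer brains per genotype than were deposited, and all deposited brains were used here. Each library averaged all the cells of its sample, and the labels gave no colitis score per mouse, so genotype stood in for inflammation.

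Metallothioneins are small cysteine-rich proteins that bind zinc and copper. In the brain, *Mt1* and *Mt2* are made mainly by astrocytes and are induced by zinc, glucocorticoids and inflammatory cytokines, whereas *Mt3* is the brain-enriched member, is found in neurons and astrocytes and responds little to metals. When cytosolic zinc rises, MTF1 binds metal response elements near the start of *Mt1*, *Mt2* and *Slc30a1* and raises their transcription. SLC30 proteins move zinc out of the cytosol, to the outside (SLC30A1) or into synaptic vesicles of glutamatergic neurons (SLC30A3, also called ZnT3), and SLC39 proteins move zinc into it.

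The libraries held 16540303 to 23923769 reads over the listed genes, with a median of 19087088, and 1 read was worth 0.0418 to 0.0605 CPM (the reads of a gene scaled to a common library size). *Xist*, expressed from the inactive X chromosome, and the Y-linked *Ddx3y* went against the labelled sex in 9 of 10 C57BL/6 samples and in 0 of 10 *Winnie* samples. The genotypes were compared over all brains, and values split by labelled sex rest on labels that the C57BL/6 samples contradict. The numbers in the sample names ran from 1 to 10 for C57BL/6 and from 11 to 20 for *Winnie* libraries, and what they mark is not stated.

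The 3 metallothionein genes lie side by side on chromosome 8 of GRCm38, all on the plus strand, in the order *Mt3* (chr8:94152607-94154146), *Mt2* (chr8:94172664-94173568) and *Mt1* (chr8:94179082-94180327). A gap of 18.5 kb separated *Mt3* from *Mt2* and a gap of 5.51 kb separated *Mt2* from *Mt1*. The metal response element is shown because MTF1 reads it. Its core was searched on both strands as TGCACNC or TGCGCNC in the first exon of each principal GENCODE M21 transcript of the cluster, which contains the letters TATAAA of a TATA box in all 3 genes. The core nearest to the TATAAA and the bases up to it are printed 5′ to 3′ on the plus strand of GRCm38, with the core and the TATAAA in capitals.
*Mt1*, chr8:94179187-94179215: TGCGCCCggactcgtccaacgacTATAAA
*Mt2*, chr8:94172729-94172758: TGCGCTCgacccaatactctccgcTATAAA
*Mt3*, chr8:94152693-94152718: TGCGCGCccccgcctggggcTATAAA

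The first exon held 4 such cores before the TATAAA in *Mt1*, 3 in *Mt2* and 3 in *Mt3*. In the first 200 bases of 21291 protein-coding transcripts, 1 per gene, 7 (0.0329%) had a core followed by TATAAA within 30 bases, and the genes were *Mt1*, *Mt2*, *Mt3*, *Ccn3*, *H2-Q2*, *Miox* and *Txn1*. The span of 30 bases was chosen after the *Mt1* and *Mt2* exons had been read, and a transcript can hold this arrangement only where its annotated start lies before a TATAAA.

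RefSeq windows (GRCm38.p6) from 250 bases before to 50 bases after a start were given for 7 of the 8 genes. The 250 bases before the RefSeq start of *Mt2* (chr8:94172368-94172617, plus strand) are shown as the richest of these windows, with the cores in capitals.
*Mt2*: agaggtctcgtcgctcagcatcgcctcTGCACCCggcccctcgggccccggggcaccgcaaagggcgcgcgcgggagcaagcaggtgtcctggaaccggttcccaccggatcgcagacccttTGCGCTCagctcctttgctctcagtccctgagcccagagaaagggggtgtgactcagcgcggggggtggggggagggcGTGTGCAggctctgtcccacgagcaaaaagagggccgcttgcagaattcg

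This *Mt2* stretch held 3 cores, 2 on the plus strand and 1 on the minus strand. Of all 32851 windows, 1.26% held 3 or more. The *Mt2* window was picked as the richest of 9, so this share is a description. One core preceded the start of *Mt1* (position -23), *Slc30a1* (position -43) and *Slc30a3* (position -77, in 1 of its 2 windows), and 21.4% of all windows held 1 or more. *Mt3*, *Mtf1* and *Slc39a10* had 0 in the same 250 bases. For *Mt1*, *Mt2* and *Mt3* these bases ended at chr8:94179088, chr8:94172617 and chr8:94152606, before the TATAAA sites printed above. The cores printed beside each TATAAA are therefore outside these counts, which depend on the annotated start. These letter matches are descriptions of sequence, and binding was not measured.

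Per length, metallothionein RNA stood far above the other genes in both genotypes. Levels were expressed as CPM per kilobase of the principal transcript, on which *Mt1* (549 bases) averaged 381 ± 36.8 (SD, n = 10) in C57BL/6 and 453 ± 61.8 (SD, n = 10) in *Winnie* brains. *Mt3* averaged 330.2 and 307, and *Mt2* 181 and 212. The ranges of *Mt1* and *Mt3* overlapped in C57BL/6 brains (345 to 437 and 296 to 366) and did not in *Winnie* brains (357 to 577 and 262 to 349.6). The ranges of *Mt3* and *Mt2* did not overlap in C57BL/6 brains (*Mt2* 153 to 208) and overlapped in *Winnie* brains (*Mt2* 148 to 279).

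*Slc39a10* (41.6 and 41.3 CPM per kilobase in C57BL/6 and *Winnie* brains) and *Slc30a3* (39.3 and 39.2) followed with overlapping ranges, so their order was within the spread. *Slc39a14* (7.44 and 7.97), *Slc30a1* (7.05 and 7.29) and *Mtf1* (5.16 and 5.12) were lowest. *Slc39a14* and *Slc30a1* overlapped in both genotypes, whereas *Slc30a1* and *Mtf1* overlapped in C57BL/6 brains and not in *Winnie* brains. The order and the overlaps depend on the length used. Over the union of all annotated exons, the ranges of *Mt1* and *Mt3* overlapped in *Winnie* brains (157 to 254 and 132 to 176). Those of *Mt3* and *Mt2* overlapped in C57BL/6 brains on that length (149 to 184 and 133 to 181). This union is longer where a transcript keeps an intron. Over it the C57BL/6 means of *Mt1*, *Mt3* and *Mt2* were 168, 166 and 157 CPM per kilobase, and *Slc39a14* (3.48) came below *Mtf1* (4.42).

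**Figure D1:**
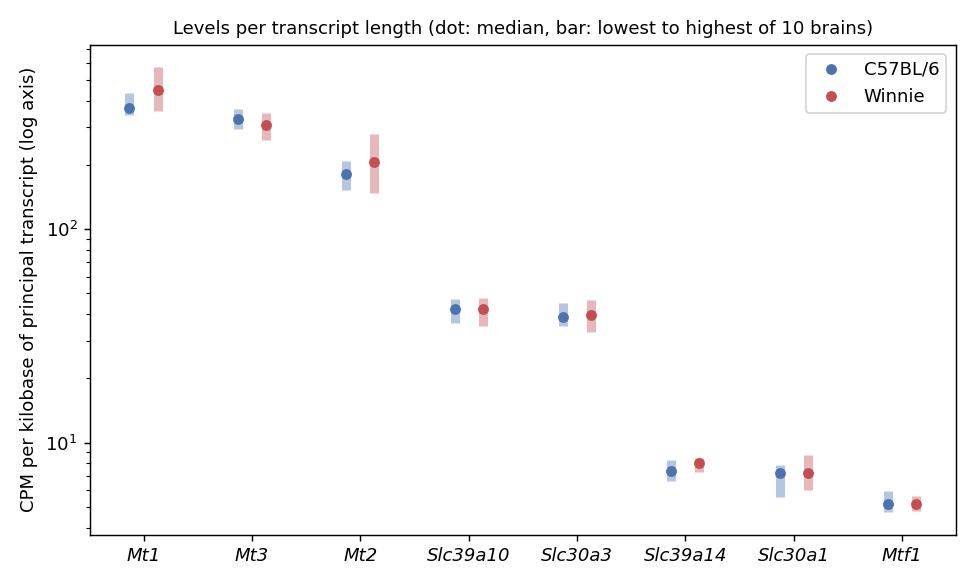
Levels of the 8 genes as CPM per kilobase of the principal transcript (log axis), in C57BL/6 (blue) and *Winnie* (red) brains, with a dot for the median and a bar from the lowest to the highest of 10 brains. The 3 metallothioneins lie between 148 and 577, *Slc39a10* and *Slc30a3* between 33.0 and 47.6, and the other genes between 4.71 and 8.79.

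Between genotypes, no gene of the 8 passed an FDR under 0.05, while *Mt1*, *Mt2* and *Slc39a14* had higher and *Mt3* lower means in *Winnie* brains at an unadjusted p under 0.05. *Mtf1*, *Slc30a1*, *Slc30a3* and *Slc39a10* differed by less than the spread between brains. Tests used limma on log2(CPM + 0.5) across the 17211 genes, with FDR for the p adjusted by the Benjamini-Hochberg procedure. By this test 0 of 8 genes were called at an FDR under 0.05, against 434 (2.52%) of all genes, and 4 of 8 had an unadjusted p under 0.05, against 3030 (17.6%) of all genes. The 8 genes were chosen with earlier results of these data known, so this share is a description. At the threshold of the study (FDR under 0.001 and 1.5-fold), limma called 0 of 8 and 0 of all genes (0.0%). At this threshold edgeR called 0 and DESeq2 10 genes in all. The study applied its threshold with edgeR and names fewer brains, so the sets of samples differ. On the recovered reads and at an FDR under 0.05, edgeR called 0 of 8, against 514 (2.99%) of all genes, and voom with limma 0 of 8, against 546 (3.17%). DESeq2 called 1 of 8 (*Mt1*), against 968 (6.51%) of the 14875 genes to which it gave an adjusted p. The 4 positive and 4 negative differences had a median of 0.02 on the log2 scale, against 0.00 over all genes. The 95% confidence intervals of all 8 genes lay inside 1.5-fold in either direction, a log2 value of 0.58.

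**Figure D2:**
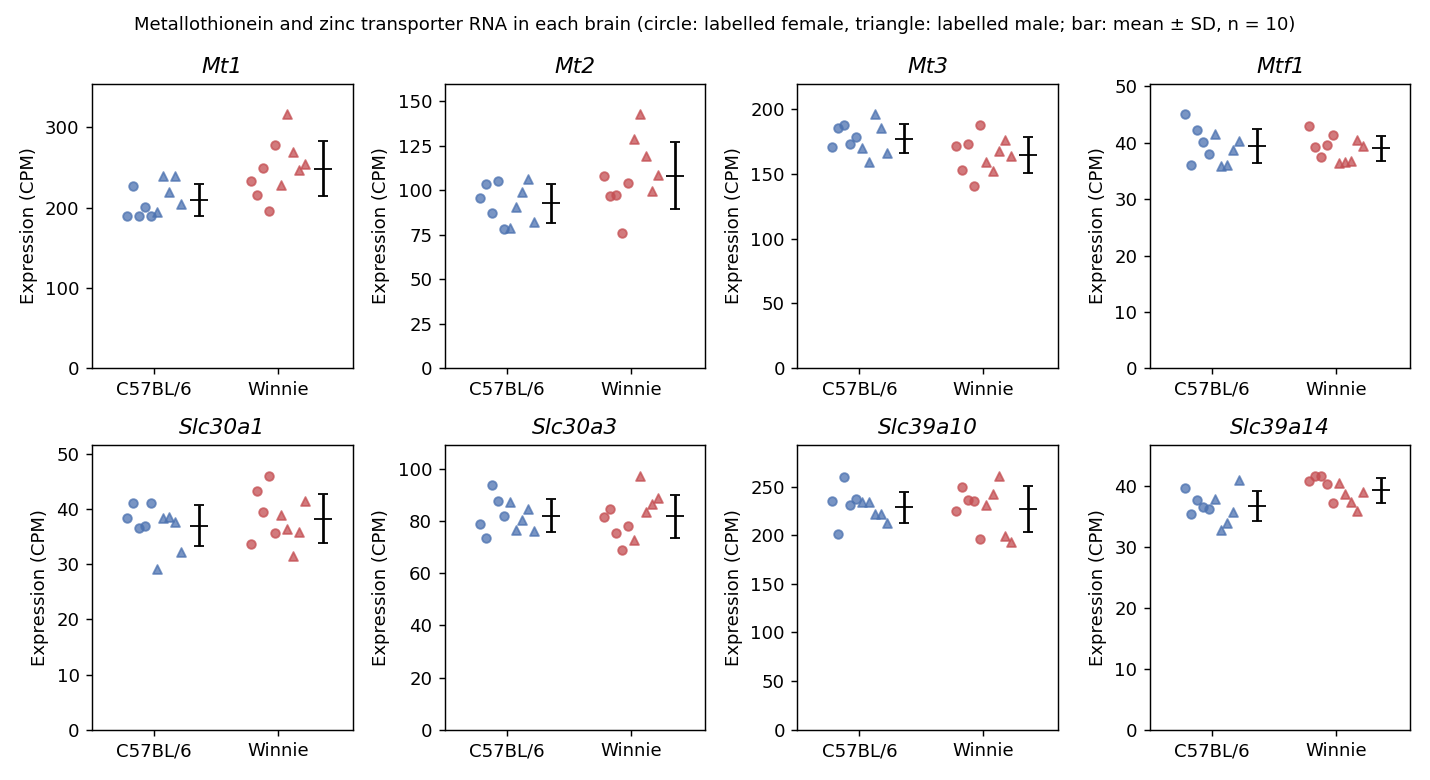
Expression (CPM, axis from 0) of the 8 genes in each brain, with C57BL/6 in blue, *Winnie* in red, circles for labelled females, triangles for labelled males, and a bar for the mean ± SD of 10 brains. For *Mt1*, 6 *Winnie* brains lie above the highest C57BL/6 brain, whereas all 10 *Winnie* values of *Mtf1* lie inside the C57BL/6 range.

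*Mt1*, the main inducible metallothionein, showed the largest difference of the 8. Its lowest, median and highest values were 189, 203 and 239.8 CPM in C57BL/6 brains and 196, 248 and 317 CPM in *Winnie* brains. Of the *Winnie* brains, 9 of 10 lay above the C57BL/6 median and 6 above the highest C57BL/6 brain, and the ranges overlapped. The means were 209 ± 20.2 and 248.8 ± 33.9 CPM (SD, n = 10 each), a log2 fold change of 0.24 (SE 0.07, 95% CI 0.10 to 0.39) or 1.18-fold. By limma the unadjusted p was 0.00185 and the FDR 0.0589. The gene passed an FDR under 0.05 in 3 of 11 alternative settings and in 2 of 20 fits with 1 brain left out. The settings were labelled sex as a covariate (FDR 0.0340), a replicate block (FDR 0.0282) and DESeq2 (FDR 0.0176). The fits were those without C57BL/6 replicate 7 (FDR 0.0418) and without *Winnie* replicate 4 (FDR 0.0198). It did not pass with edgeR (FDR 0.0572), with voom (FDR 0.0640) or with *Ddx3y* in place of labelled sex (limma FDR 0.0675). Between 3527 and 5900 reads lay behind each value.

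*Mt2*, the neighbour of *Mt1* and induced by the same agents, varied most among the brains. Its lowest, median and highest values were 78.4, 93.1 and 106 CPM in C57BL/6 brains and 75.8, 106 and 143 CPM in *Winnie* brains. Of the *Winnie* brains, 9 of 10 lay above the C57BL/6 median, 5 lay above the highest C57BL/6 brain and 1 lay below the lowest. The means were 92.6 ± 10.9 and 108 ± 18.7 CPM (SD, n = 10 each), a log2 fold change of 0.21 (SE 0.09, 95% CI 0.02 to 0.40) with a limma FDR of 0.227. The coefficient of variation was 11.7% in C57BL/6 and 17.3% in *Winnie* brains, the highest of the 8 genes in each genotype. Exons of *Mt2* overlap the antisense gene *Gm45774*, which is not among the 17211 genes and so has no level here. The strandedness of the counting is not given in the sources used here, so any reads of the 2 genes cannot be told apart.

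*Mt3*, the brain-enriched metallothionein, had the opposite sign. Its lowest, median and highest values were 159, 176 and 196 CPM in C57BL/6 brains and 140.2, 166 and 187 CPM in *Winnie* brains. Of the *Winnie* brains, 8 of 10 lay below the C57BL/6 median, 3 lay below the lowest C57BL/6 brain and 0 above the highest. The means were 177 ± 11.3 and 164 ± 13.7 CPM (SD, n = 10 each), a log2 fold change of -0.11 (SE 0.05, 95% CI -0.20 to -0.02) with a limma FDR of 0.195.

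The ratio of *Mt1* to *Mt3* within a brain does not depend on how libraries are scaled. It was chosen after the values of both genes had been seen and is given without a test. The lowest, median and highest ratios of CPM were 1.01, 1.15 and 1.51 in C57BL/6 brains and 1.37, 1.44 and 2.08 in *Winnie* brains. All 10 *Winnie* brains lay above the C57BL/6 median and 3 above the highest C57BL/6 brain. The ratio of *Mt1* to *Mt2* had medians of 2.23 and 2.30, with 6 of 10 *Winnie* brains above the C57BL/6 median.

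**Figure D3:**
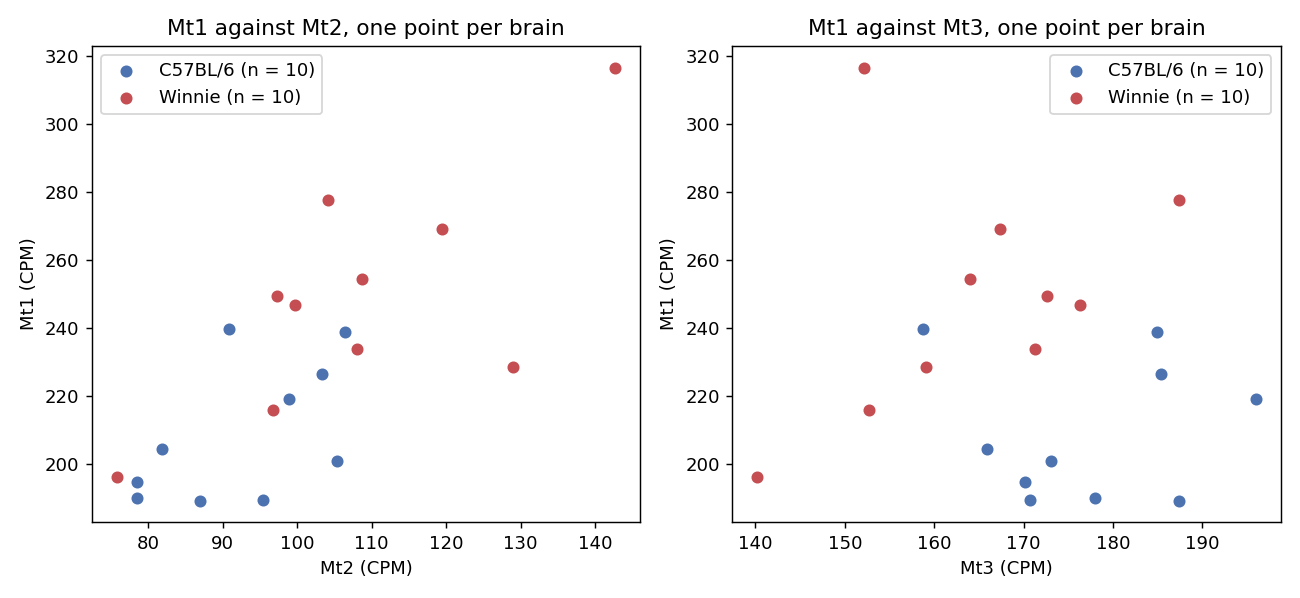
*Mt1* (CPM) against *Mt2* (CPM, left) and against *Mt3* (CPM, right), with 1 point per brain, C57BL/6 in blue and *Winnie* in red. *Mt1* and *Mt2* tend to be high in the same brains, and *Winnie* brains lie toward higher *Mt1* at a given *Mt3*, with *Mt1* to *Mt3* ratios of 1.37 to 2.08 against 1.01 to 1.51.

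Among the brains, *Mt1* and *Mt2* were related by Pearson r and not by rank after adjustment. With the genotype means removed, their log2 values had a Pearson r of 0.674 over 20 brains (permutation p 0.0336 adjusted over 28 pairs of the 8 genes) and a Spearman rho of 0.535 (adjusted permutation p 0.231). Within C57BL/6 brains r was 0.551 and within *Winnie* brains 0.733. Without the 2 brains farthest from the median of *Mt1*, r was 0.375, so the relation rests in part on those brains. None of the other 27 pairs passed the adjusted threshold, and the nearest was *Mt1* with *Slc39a14* (r -0.569, adjusted permutation p 0.121, and rho -0.647, adjusted permutation p 0.0633). Among the 17210 other genes, *Mt2* was the 21st most like *Mt1* by this r over 20 brains, and *Mt1* the 46th most like *Mt2*. The genes most like *Mt1* were *Mapre3* (r 0.772), *Dnajc19-ps* (0.762) and *Tnfaip8l3* (0.736), and those most like *Mt2* included *Grp* (0.820) and *Aloxe3* (0.780). The genes most like *Mt3* were *Cenpv* (0.816), *Fank1* (0.806) and *Nabp2* (0.785).

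*Mtf1*, which encodes the zinc-sensing activator, had nearly equal levels. The lowest, median and highest values were 35.9, 39.4 and 45.1 CPM in C57BL/6 brains and 36.4, 39.4 and 43.1 CPM in *Winnie* brains. All 10 *Winnie* brains lay inside the C57BL/6 range. The log2 fold change was -0.01 (SE 0.05, 95% CI -0.10 to 0.08) with a limma FDR of 0.935. Its exons overlap those of *1110065P20Rik* on the opposite strand, which averaged 12.1 CPM. Of the other genes linked to MTF1, 0 of the 3 measured passed an FDR under 0.05 by limma, edgeR, DESeq2 or voom. An unadjusted limma p under 0.05 was reached by 1, against 3030 (17.6%) of all genes. That gene, *Gclc*, the catalytic subunit of the enzyme that begins glutathione synthesis, had a log2 fold change of 0.11 (limma FDR 0.113), followed by *Ndrg1* (0.04, limma FDR 0.658). The genes most like *Mtf1* over the 20 brains were *Sik2* (r 0.856), *Kdm6b* (0.853) and *Ccnd2* (0.842).

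*Slc30a1*, the exporter of the plasma membrane and a target of MTF1, did not differ beyond the spread. The lowest, median and highest values were 29.1, 38.0 and 41.1 CPM in C57BL/6 brains and 31.6, 37.6 and 46.1 CPM in *Winnie* brains. Of the *Winnie* brains, 5 lay above and 5 below the C57BL/6 median. The log2 fold change was 0.05 (SE 0.06, 95% CI -0.08 to 0.18) with a limma FDR of 0.765. Its exons overlap the antisense gene *1700034H15Rik*, which averaged 3.61 CPM. The genes most like *Slc30a1* over the 20 brains were *Bbs9* (r 0.910), *Rps6ka5* (0.848) and *Trappc9* (0.840).

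*Slc30a3*, the transporter that fills synaptic vesicles with zinc, also kept within the spread. The lowest, median and highest values were 73.4, 81.3 and 94.0 CPM in C57BL/6 brains and 69.0, 82.6 and 97.6 CPM in *Winnie* brains, so the *Winnie* range enclosed the C57BL/6 range. The log2 fold change was -0.01 (SE 0.05, 95% CI -0.12 to 0.10) with a limma FDR of 0.955. Of 8 genes for its vesicles, 0 passed an FDR under 0.05 by limma, edgeR or voom. DESeq2 called 1, *Ap3s1*, against 968 (6.51%) of the genes to which it gave an adjusted p. An unadjusted limma p under 0.05 was reached by 1, against 3030 (17.6%) of all genes. The vesicle genes include *Slc17a7*, the vesicular glutamate transporter (log2 fold change -0.03, limma FDR 0.769), and subunits of the AP-3 coat, which sorts SLC30A3 to vesicles. *Ap3s1* was nearest to the threshold (log2 fold change -0.13, limma FDR 0.0747), followed by the vesicle protein gene *Syp* (log2 fold change -0.06, limma FDR 0.387). The genes most like *Slc30a3* over the 20 brains were *Fbxo41* (r 0.845), *Hpcal4* (0.844) and *Cck* (0.836).

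Neither importer passed an FDR under 0.05. *Slc39a14*, a carrier of zinc, iron and manganese that interleukin 6 induces in liver, had lowest, median and highest values of 32.7, 36.4 and 40.9 CPM in C57BL/6 brains and 35.8, 39.6 and 41.7 CPM in *Winnie* brains. Of the *Winnie* brains, 9 of 10 lay above the C57BL/6 median and 2 above the highest C57BL/6 brain. The log2 fold change was 0.10 (SE 0.04, 95% CI 0.01 to 0.19) with a limma FDR of 0.216.

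*Slc39a10*, a zinc importer of the cell surface, had lowest, median and highest values of 200.8, 232 and 259.7 CPM in C57BL/6 brains and 193, 234 and 261 CPM in *Winnie* brains. Of the *Winnie* brains, 6 lay inside the C57BL/6 range. The log2 fold change was -0.02 (SE 0.05, 95% CI -0.12 to 0.09) with a limma FDR of 0.910. Over the 20 brains, *Mtmr4* (r 0.879), *Setd7* (0.831) and *Herpud1* (0.827) were most like *Slc39a14*. *Thrb* (r 0.841), *Fam179b* (0.834) and *Kpna1* (0.827) were most like *Slc39a10*.

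None of the other measured members of both transporter families passed the limma test. Of 6 other SLC30 exporters measured, 0 passed an FDR under 0.05 by limma, with a median log2 fold change of 0.00 and a range of -0.01 to 0.12. An unadjusted limma p under 0.05 was reached by 1, against 3030 (17.6%) of all genes. *Slc30a7*, which supplies zinc to the early secretory pathway, was that gene, at means of 21.3 and 23.1 CPM (log2 fold change 0.12, limma FDR 0.146). The other exporters were *Slc30a4*, *Slc30a5*, *Slc30a6*, *Slc30a9* and *Slc30a10*, with the highest mean for *Slc30a9* (131 and 130.4 CPM in C57BL/6 and *Winnie* brains). Of 11 other SLC39 importers, 0 passed, with a median of -0.02 and a range of -0.10 to 0.08. An unadjusted limma p under 0.05 was reached by 1, against the same 17.6% of all genes. That gene was *Slc39a3*, at means of 62.3 and 58.0 CPM (log2 fold change -0.10, limma FDR 0.125). The other importers were *Slc39a1*, *Slc39a2*, *Slc39a4*, *Slc39a6*, *Slc39a7*, *Slc39a8*, *Slc39a9*, *Slc39a11*, *Slc39a12* and *Slc39a13*, with the lowest mean for *Slc39a4*, the importer of the intestine (1.39 and 1.36 CPM). In both families edgeR and voom also called 0. DESeq2 called *Slc39a3* alone, against 6.51% of the genes to which it gave an adjusted p. *Mt4*, *Slc30a2*, *Slc30a8* and *Slc39a5* were not analysed here. Of 10 genes of copper handling, 0 passed and 3 had an unadjusted p under 0.05, against 3030 (17.6%) of all genes. The copper chaperone *Atox1* averaged 18.5 and 15.8 CPM (log2 fold change -0.22, limma FDR 0.0643) and superoxide dismutase *Sod1* 93.8 and 85.7 CPM (log2 fold change -0.13, limma FDR 0.137), with 10 of 10 *Winnie* brains below the C57BL/6 median for each. The ferroxidase *Cp* was the other, at means of 14.9 and 17.4 CPM (log2 fold change 0.23, limma FDR 0.145). In the copper list edgeR and voom called 0. DESeq2 called 2, *Atox1* and *Sod1*, against 6.51% of the genes to which it gave an adjusted p.

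**Figure D4:**
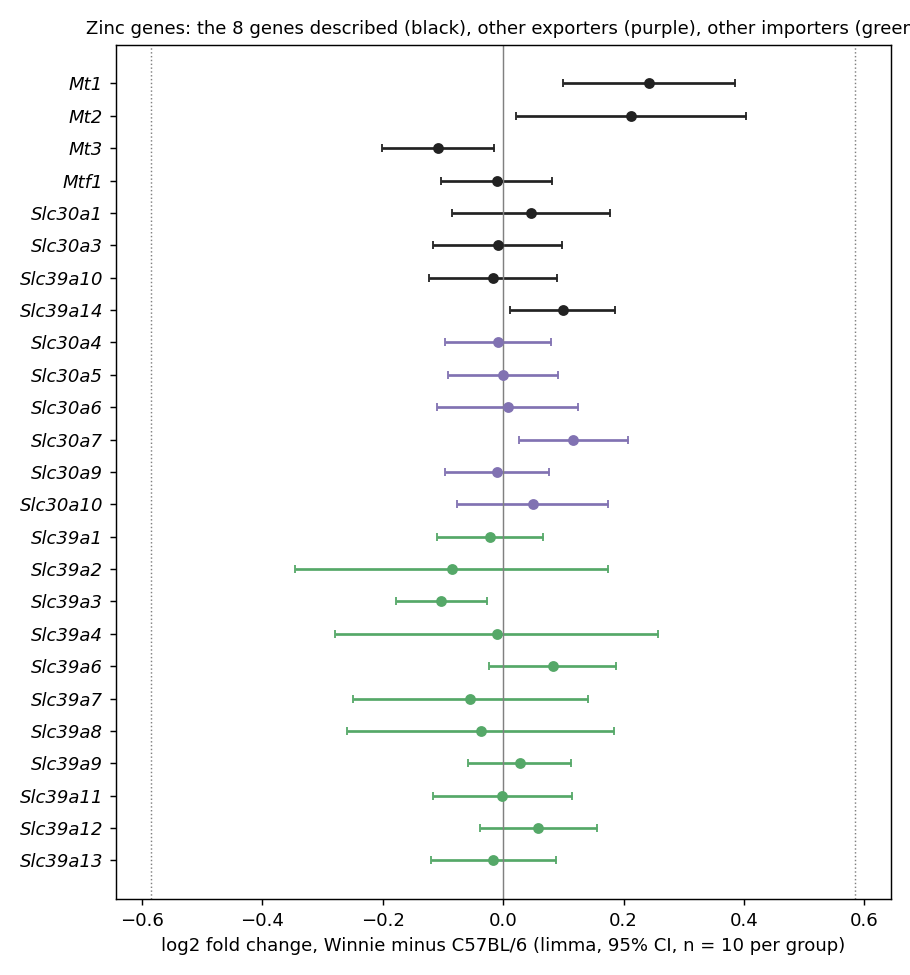
Log2 fold change, *Winnie* minus C57BL/6, with its 95% confidence interval from limma (n = 10 per group), for the 8 genes (black), 6 other zinc exporters (purple) and 11 other zinc importers (green), with dotted lines at 1.5-fold. All intervals lie inside the dotted lines, and those of *Mt1*, *Mt2*, *Mt3*, *Slc39a14*, *Slc30a7* and *Slc39a3* do not cross 0.

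Glucocorticoids and cytokines both induce *Mt1* and *Mt2*, so lists of genes known to respond to each were measured beside them. These lists were chosen with earlier results of these data known, so their shares are descriptions. The part of either signal in the *Mt1* and *Mt2* values was not tested. Of 10 glucocorticoid-induced genes, 4 rose at an FDR under 0.05, against 261 (1.52%) of all genes, and 0 fell, against 173 (1.01%) of all genes. The median log2 fold change of the list was 0.41, and 2 to 4 of its genes passed with 1 brain left out. The kinase *Sgk1* rose by 0.98, the leucine zipper protein *Tsc22d3* by 0.48, the receptor inhibitor *Errfi1* by 0.28 and the lipid droplet protein *Plin4* by 1.91 on the log2 scale (limma FDR 0.0374, 0.0139, 0.0393 and 0.0163). Of 10 cytokine-induced genes, 0 passed an FDR under 0.05 by limma. An unadjusted p under 0.05 was reached by 3, against 3030 (17.6%) of all genes. The median log2 fold change of the cytokine list was 0.08. The acute phase gene *Serpina3n* was nearest, with a log2 fold change of 0.21 (limma FDR 0.0738), followed by the interleukin 6 receptor gene *Il6ra* (log2 fold change 0.18, limma FDR 0.132). In the cytokine list edgeR and voom called 0. DESeq2 called 1, *Serpina3n*, against 6.51% of the genes to which it gave an adjusted p. It gave no adjusted p for 2 genes of the list.

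The mean log2 value of the 10 glucocorticoid-induced genes was then set against each of the 8 genes over the 20 brains, with genotype means removed, a relation chosen after seeing the data. *Slc39a14* followed the list with a Pearson r of 0.636 (permutation p 0.0198 adjusted over the 8 genes) and a Spearman rho of 0.665 (adjusted permutation p 0.0154). Its r was 0.760 within C57BL/6 brains, 0.432 within *Winnie* brains and 0.473 without the 2 brains farthest from the median of the list. *Slc39a10* had an r of 0.496 (adjusted permutation p 0.109) and a rho of 0.561 (adjusted permutation p 0.0466). For *Mt1* the r was -0.283 (adjusted permutation p 0.430), with -0.846 within C57BL/6 brains and 0.193 within *Winnie* brains, and for *Mt2* it was 0.125 (adjusted permutation p 0.603). *Mtf1* had an r of 0.357 (adjusted permutation p 0.327), with 0.886 within C57BL/6 brains and -0.546 within *Winnie* brains. The difference between genotypes in these relations was not tested.

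Markers of astrocytes, the main source of *Mt1* and *Mt2*, differed in sign among themselves. Of 10 markers, 5 had a higher and 5 a lower mean in *Winnie* brains. An unadjusted limma p under 0.05 was reached by 5, against 3030 (17.6%) of all genes. At an FDR under 0.05 limma called 1, against 434 (2.52%) of all genes. This was the connexin gene *Gjb6*, which rose (log2 fold change 0.22, limma FDR 0.0384). Among the others, the log2 fold change was 0.20 for *Fgfr3*, -0.14 for *S100b*, -0.16 for the water channel gene *Aqp4*, -0.17 for *Sox9* and -0.01 for *Gfap*, with a limma FDR of 0.0866, 0.123, 0.180, 0.186 and 0.937. DESeq2 called 3, *Gjb6* and *Fgfr3* as higher and *S100b* as lower, against 6.51% of the genes to which it gave an adjusted p. The 10 genes summed to 4024 to 4779 CPM in C57BL/6 and 4131 to 4782 CPM in *Winnie* brains, a sum made up largely of *Slc1a2*. The 8 endothelial markers summed to 255 to 351 CPM in C57BL/6 and 317 to 370.5 CPM in *Winnie* brains. Of these, 7 had a positive log2 fold change and 5 had an unadjusted limma p under 0.05, against 3030 (17.6%) of all genes. The glucose transporter *Slc2a1* rose (log2 fold change 0.45, limma FDR 0.00551), with means of 95.6 and 130 CPM within the sum. The tight junction gene *Cldn5*, the only marker with a negative value, fell (log2 fold change -0.47, limma FDR 0.00331). Limma thus called 2 of 8, against 434 (2.52%) of all genes. EdgeR, DESeq2 and voom called the transporter gene *Slco1a4* as well, 3 of 8 each, against 2.99%, 6.51% and 3.17% of the genes they tested. Other lists covered neurons of the forebrain, cerebellum and striatum, neurons at large, oligodendrocytes, microglia, choroid plexus, meningeal fibroblasts and blood. In these, limma, edgeR, DESeq2 and voom called 0 genes. Per list, 0 to 3 genes had an unadjusted limma p under 0.05, against 3030 (17.6%) of all genes. No marker of any list was at 0 in all brains. The log2 fold change was negative for 7 of 7 striatal, 5 of 5 blood and 5 of 6 general neuronal markers. It was negative for 7 of 8 in each of the oligodendrocyte, microglial and choroid plexus lists. The forebrain, cerebellar and meningeal lists had 6 of 10, 4 of 8 and 2 of 8. Over all genes the median log2 fold change was 0.00. An unadjusted limma p under 0.05 was reached by 0 striatal, 1 blood and 0 general neuronal markers. Markers of a list can vary together among brains, so these sign counts are descriptions. The striatal markers summed to 292 to 1017 CPM in C57BL/6 and 283 to 990 CPM in *Winnie* brains, a wide spread within each genotype. In the cerebellar list, *Gabra6* averaged 1.46 and 0.453 CPM and *Cbln1* 32.98 and 33.19 CPM in C57BL/6 and *Winnie* brains. *Gabra6* had medians of 0.804 and 0.262 CPM, with 0 to 129 reads per brain. Its C57BL/6 mean was raised by the highest brain, at 7.44 CPM. The part of cell makeup, or of the striatal spread, in the levels and correlations of the 8 genes was not tested. In bulk tissue fewer cells of a type and less RNA per cell cannot be told apart.

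The genotype difference was also set against labelled sex, with 5 brains per group. Of the 8 genes, 0 passed an FDR under 0.05 for the interaction of genotype and labelled sex by limma, against 12 (0.0697%) of all genes, and 1 (*Mt2*) had an unadjusted p under 0.05, against 1054 (6.12%) of all genes. The log2 fold change of *Mt2* was 0.04 in labelled females and 0.39 in labelled males (interaction limma FDR 0.763). Since the C57BL/6 labels go against *Xist* and *Ddx3y* in 9 brains, this is a split by label. With *Ddx3y* as a covariate in place of the label, the log2 fold change of *Mt1* over all brains was 0.24 (limma FDR 0.0675).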

How the data were processed

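Brain RNA was sequenced by the authors as polyA libraries with paired-end reads, run through RNAsik (build GRCm38), and FeatureCounts gave the reads of each gene. The values deposited by the authors are CPM, scaled to library size in Degust. The strandedness and low-count filter are not given in the sources used here. All values were whole numbers of reads within 0.1 read, so reads were recovered for the count tests.

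Genotypes were compared with limma 3.58.1 (trend, robust; R 4.3.3) on log2(CPM + 0.5), unpaired, over 17211 genes, and fold changes are on that scale. Alternatives were other pseudocounts, a filter on mean CPM, median-ratio scaling, quantile normalization, covariates, a replicate block, edgeR 4.0.16, DESeq2 1.42.0, voom, and each brain left out. Correlations used 100000 resamples, two-sided (scipy 1.17.1). The 8 genes, the lists and the alternatives were chosen with earlier results of these data known. Named genes were the 8, the other zinc transporters, the 3 genes most like each of the 8 (1 is not reported here), *Xist* and *Ddx3y*, and from each related list the genes called or, failing that, the 2 of smallest p. Other genes were chosen after their values were seen. Annotation came from GENCODE M21, and the motif windows came from RefSeq GRCm38.p6. P-values set a difference or relation against the spread between these samples.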

Additional observations from a re-analysis of the deposited data

How the results depend on the processing

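*Mt2*, *Mt3*, *Slc30a1* and *Slc39a14* kept their sign and stayed above an FDR of 0.05 in 11 alternatives and in 20 fits with 1 brain left out each. *Mt1* kept its sign throughout. It passed an FDR under 0.05 with labelled sex as a covariate (log2 fold change 0.24), with a replicate block (0.24, FDR 0.0282) and with DESeq2 (0.25), the only gene of the 8 to do so, which made the count 1 in each. With 1 brain left out its log2 fold change was 0.20 to 0.28 (FDR 0.0198 to 0.120), and 0 to 1 of the 8 genes passed. The differences closest to 0 changed sign without single brains: *Mtf1* -0.027 to 0.011, *Slc30a3* -0.038 to 0.017 and *Slc39a10* -0.040 to 0.0083. The cause was not tested.

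Over all genes, 434 passed an FDR under 0.05, against 227 with the replicate block, 968 with DESeq2 and 169 to 694 with 1 brain left out. The count moved over 1.5 times without C57BL/6 replicates 3, 5, 8, 9 or 10 (highest) and without *Winnie* replicates 2, 3, 7 or 8. At the threshold of the study DESeq2 called 10, and fits with 1 brain left out 0 to 2. Same-numbered brains did not deviate together (10 pairs, r -0.29 to 0.15). A pairing with a small effect could also give such values, so the replicate block stands as an alternative only. The 4 glucocorticoid-induced genes called became 3 with the replicate block and 5 with DESeq2, and 2 without any one of C57BL/6 replicates 3, 4, 5, 7, 8 or 9 or *Winnie* replicates 2, 3, 4 or 7. Alternative scalings moved the median of all genes by less than 0.1 on the log2 scale.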
